A study of Mus musculus with 8 samples.

Results

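The genes of DNA replication and mitosis were followed through the open chromatin of the developing mouse lens. They are 48 genes chosen by name, of 21000 protein-coding genes with a curated RefSeq transcript: 7 MCM genes, 8 genes of origin licensing, 5 of Cdc45 and GINS, 9 of polymerases and clamp, 4 of nucleotide supply, 7 cyclins and CDKs and 8 genes of mitosis. Open DNA was read with ATAC-seq, in which the transposase Tn5 cuts accessible chromatin and tags it for sequencing. Lenses of CD1 mice were micro-dissected into epithelium and fibers in the embryo (E14.5) and the newborn (P0.5), here called embryonic and newborn, and no group carried an added allele or treatment. Each of the 4 groups held 2 libraries, made from several pooled lenses. The deposited peaks were called on the 2 libraries together, so each group has 1 list and no spread between replicates could be computed. Differences between lists are therefore given without a test, and epithelium and fibers are tissues separated by dissection, not sorted cells.

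The lists held 100003 peaks in embryonic epithelium, 123743 in embryonic fibers, 58592 in newborn epithelium and 62995 in newborn fibers. A q value under 0.001 was reached by 80.5% to 87.9% of peaks in the first 3 lists and by 48.9% in newborn fibers. The fold enrichment of a peak was a whole number of fragments at its summit set against 1 constant background for the whole list, of 1.61, 2.37, 1.36 and 1.16 fragments per base in the same order. The number of fragments at each summit could therefore be read back, and it is the depth behind each value below. The weakest peaks rested on 7, 8, 7 and 6 fragments. Markers of lens fibers had more fragments in fibers, in 5 of 5 genes at E14.5 and 4 of 4 at P0.5 (medians of 3.83 and 2.11 times, relative to all genes). Markers of lens epithelium did not separate the tissues (3 of 5 higher in epithelium at each stage). Of 4 markers each, leukocyte genes had a promoter peak in 3, 3, 1 and 1 cases, endothelial genes in 3, 3, 2 and 2, retinal genes in 4, 4, 3 and 1, and genes of periocular mesenchyme in all 4 in every list. The part of such cells in the values below was not tested.

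Before a cell divides it licenses its origins of replication. The origin recognition complex (Orc1 to Orc6) binds DNA and, with Cdc6 and Cdt1, loads the ring-shaped MCM helicase. Cdk2 with cyclin E and the recruitment of Cdc45 and GINS turn that ring into an active helicase, the polymerases copy the strands with the clamp Pcna and its loader, the Rfc complex, and ribonucleotide reductase (Rrm1, Rrm2), Tyms and Tk1 supply the nucleotides. Cdk1 with cyclins A and B starts mitosis, Aurora and Polo kinases and the checkpoint proteins Bub1 and Bub1b guard it, and Cdc20 ends it. E2F factors are known to control many replication genes, and the DREAM and MuvB complexes many mitotic genes. In the lens, division is found in the epithelium, and fiber cells leave the cell cycle as they differentiate.

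Nearly all of these promoters were open in both tissues at both stages. A peak reaching within 2 kb of any start of the gene was listed for 48 of 48 genes in embryonic epithelium, where 70.3% of all protein-coding genes had one. It was listed for 48 of 48 in embryonic fibers (71.2% of all genes), for 48 of 48 in newborn epithelium (67%) and for 46 of 48 in newborn fibers (64.6%). In bulk tissue, fewer cells with an open promoter and a less open promoter in each cell cannot be told apart. The genes without a promoter peak in newborn fibers were Aurkb, the kinase of the chromosomal passenger complex, and Bub1b, which encodes the spindle checkpoint protein BubR1. Among all genes with a promoter peak in newborn epithelium, 8.73% had none in newborn fibers.

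Aurkb stood at 65 fragments in embryonic epithelium, 98 in embryonic fibers and 27 in newborn epithelium. Its nearest peak in newborn fibers lay inside the gene, 2680 bp from the start, with 9 fragments. Bub1b stood at 87, 80 and 27 fragments in the same 3 lists, and the nearest peak in newborn fibers was 48346 bp away. Both genes thus had open promoters in the embryonic fibers and in the newborn epithelium. At the median ratio of genes with a promoter peak in both lists, 27 fragments in newborn epithelium correspond to 12.6 fragments in newborn fibers. That median leaves out genes without a promoter peak in newborn fibers, where the weakest listed peak held 6 fragments. Tyms (14 fragments in newborn epithelium), Plk1 (18) and Tk1 (19) were lower in newborn epithelium and had a listed peak in newborn fibers, with 7, 9 and 9 fragments. The part of depth in the missing peaks was not tested.

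The promoter window of 2 kb also takes in peaks beside the start. A peak over a start base itself was found for 47, 47, 45 and 42 of the 48 genes in embryonic epithelium, embryonic fibers, newborn epithelium and newborn fibers, against 62.6%, 64.3%, 58.9% and 50.8% of all genes. In newborn fibers the start was left out of the peaks of Mcm6, Cdc45, Ccna2, Mki67, Aurkb and Bub1b. The start of Ccna2 (cyclin A2) was outside the peaks in every list, and its strongest summit lay between 843 and 942 bp into the gene. Summits otherwise sat close to the start: within 200 bp in 45, 44, 43 and 38 genes, and more than 500 bp away in Tk1 and Ccna2 only. These distances were not counted for all genes, so they cannot be read as a trait of the group. Between the tissues of E14.5 the summit moved by a median of 10.5 bp (all genes 28 bp), and between those of P0.5 by 51 bp (all genes 64 bp). The strongest promoter peaks of the 2 tissues overlapped in 48 of 48 genes at E14.5 (96.1% of all genes) and in 45 of 46 at P0.5 (90.7%).

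**Figure D1:**
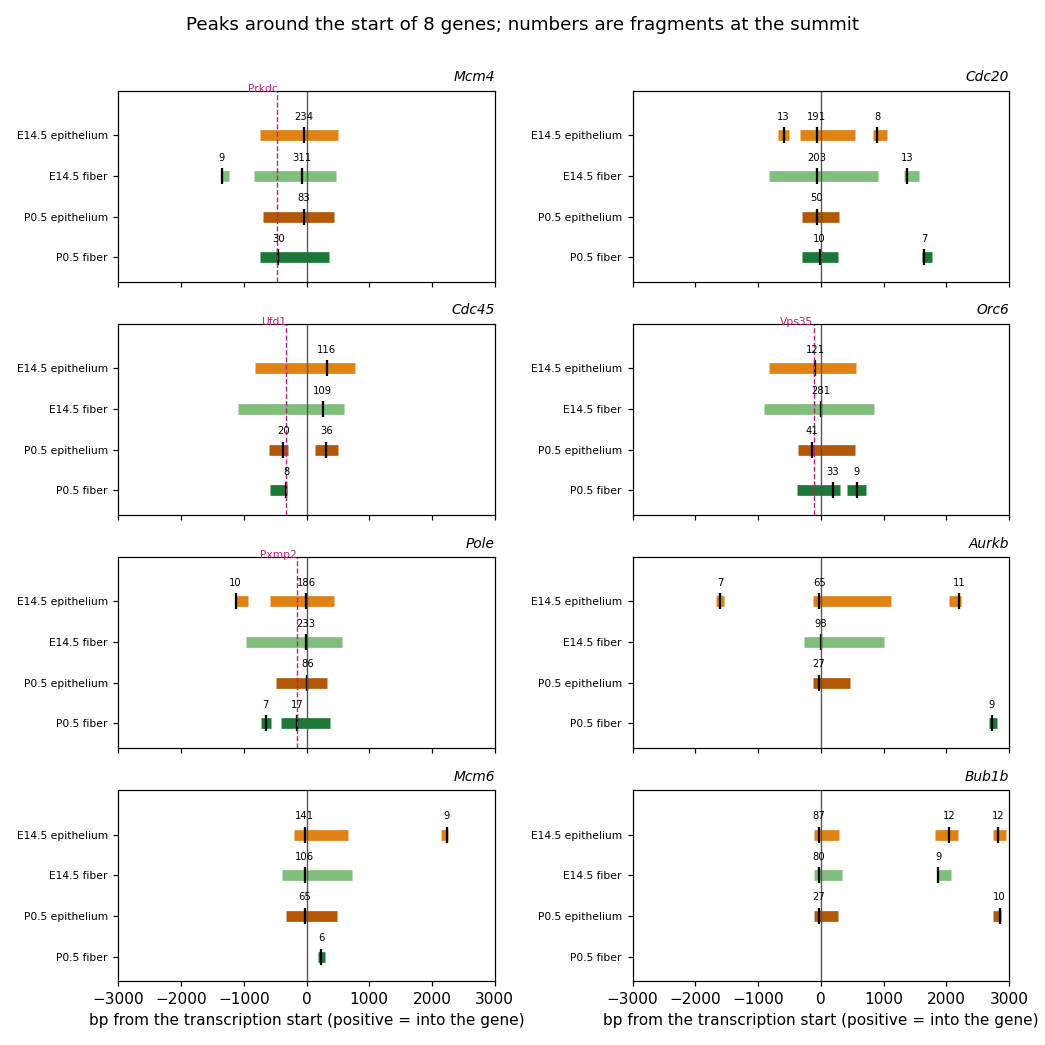
Peaks of the 4 lists around the transcription start of 8 genes. The x axis is the distance from the start in bp, positive into the gene, bars are peaks, black ticks are summits with their fragments, the grey line is the start and the dashed line the start of a neighbouring gene. In newborn fibers the summit of Mcm4, Cdc45 and Pole stands at the neighbour's start, Mcm6 keeps a peak of 6 fragments beside its start, and Aurkb and Bub1b have no peak at the start.

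At 3 replication genes that share their promoter region with a neighbour on the opposite strand, the summit in newborn fibers stood at the neighbour's start, as the maps of peaks around the start show. These 3 were picked out after their values were seen. Mcm4, a subunit of the MCM ring, had its summit 37, 80 and 42 bp from its own start in embryonic epithelium, embryonic fibers and newborn epithelium, and 450 bp away in newborn fibers, where it was 16 bp from the start of Prkdc. Pole, the catalytic subunit of the leading-strand polymerase, had its summit 5, 5 and 15 bp from its start in those lists. In newborn fibers it was 152 bp away and 1 bp from the start of Pxmp2. Cdc45, which joins MCM and GINS in the active helicase, had summits 319, 259 and 318 bp into the gene, and in newborn fibers a single peak whose summit was 3 bp from the start of Ufd1. In newborn epithelium the region held separate peaks, of 36 fragments inside Cdc45 and 20 fragments beside Ufd1, and in newborn fibers the 8 fragments beside Ufd1 were all that was listed.

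Of the 48 genes, 13 (27.1%) had the start of another gene within 2 kb, against 16.8% of all genes. Their strongest summit was nearer to the neighbour's start than to their own in 4, 3, 3 and 6 of 13 genes in embryonic epithelium, embryonic fibers, newborn epithelium and newborn fibers. These were 30.8%, 23.1%, 23.1% and 46.2%, against 42.8%, 42.9%, 43.3% and 43.3% of all such genes. The share in newborn fibers was thus near that of all such genes, and the shares in the other lists were below it. Between the tissues of P0.5 the summit moved by more than 200 bp in 7 of 46 genes (15.2%), where 23.2% of all genes did. The peak of a shared region cannot be assigned to one of its genes, and this holds for Mcm4, Mcm7, Orc1, Orc3, Orc4, Orc5, Orc6, Cdc45, Pole, Rfc5, Tk1, Cdk2 and Aurka.

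The promoters carry sequence motifs known from cell cycle genes, and these differed between roles. RefSeq promoter windows of GRCm38.p6, 250 bases before to 50 bases from the start, were at hand for 39 of the 48 genes (43 windows). Mcm4, Gins1, Gins2, Gins4, Pole, Rfc2, Ccne2, Ccna2 and Aurkb had no entry. On both strands, an E2F site (TTTCCCGC, TTTCGCGC, TTTGCCGC or TTTGGCGC) was found in 14 of the 43 windows (32.6%), against 2.91% of all windows. It was found in 4 of 6 MCM genes, 4 of 8 licensing genes, 3 of 7 genes of polymerases and clamp and 0 of 7 mitosis genes. The cell cycle homology region (CHR, TTTGAA) was found in 6 of 7 mitosis genes, 1 of 6 MCM genes, 0 of 8 licensing genes and 0 of 7 genes of polymerases and clamp. The other roles did not follow a split between replication and mitosis. Cdc45 and Gins3 both held CHR, and 1 of them E2F, the cyclins and CDKs held each motif in 2 of 5 genes, and nucleotide supply held both in 0 of 4. Of 20 other replication genes with a window, 5 held E2F and 5 CHR, and of 19 other mitosis genes 2 held E2F and 13 CHR. Over all 43 windows CHR was found in 11 (25.6%), against 15.3% of all windows. CCAAT boxes were in 31 windows (72.1%, all windows 38.4%), including every window of the MCM and mitosis genes, and Sp1 sites (GGGCGG) in 34 (79.1%, all windows 47.6%). The NRF1 palindrome was in 0 of the 43 windows and in 1.38% of all windows. One CCAAT match overlapped an E2F match and 1 overlapped an Sp1 match. GC content was 58% at the median (all windows 57%), and the ratio of observed to expected CpG was 0.896 (all windows 0.588).

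The following stretches show the promoters on which the comparisons below turn. Each runs 5′ to 3′ on the strand of the gene and ends at the last base before the start (150 bases, 100 for Orc6, where an exon of its neighbour begins farther out, RefSeq, GRCm38.p6), with E2F, CHR and CCAAT matches in capitals. They stand for the E2F type (Mcm6, Mcm5), a licensing gene with CCAAT and Sp1 matches but no E2F or CHR (Orc6, Sp1 not in capitals), the CHR type (Cdc20), and Plk1 and Bub1b, whose CHR matches lie in the transcribed part and are not printed.
Mcm6 (chr1:128359706-128359855, minus strand): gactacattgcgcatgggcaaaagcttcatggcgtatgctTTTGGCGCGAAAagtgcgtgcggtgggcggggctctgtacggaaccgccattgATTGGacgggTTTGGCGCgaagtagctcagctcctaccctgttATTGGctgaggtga
Mcm5 (chr8:75109359-75109508, plus strand): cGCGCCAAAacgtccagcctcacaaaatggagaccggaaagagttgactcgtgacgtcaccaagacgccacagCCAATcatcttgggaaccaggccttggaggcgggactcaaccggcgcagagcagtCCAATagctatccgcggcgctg
Orc6 (chr8:85299532-85299631, plus strand): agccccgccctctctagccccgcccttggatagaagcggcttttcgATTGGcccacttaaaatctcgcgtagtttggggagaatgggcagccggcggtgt
Cdc20 (chr4:118437344-118437493, minus strand): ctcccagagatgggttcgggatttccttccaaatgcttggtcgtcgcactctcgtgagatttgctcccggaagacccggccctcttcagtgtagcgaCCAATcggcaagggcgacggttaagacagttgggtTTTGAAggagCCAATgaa
Plk1 (chr7:122159285-122159434, plus strand): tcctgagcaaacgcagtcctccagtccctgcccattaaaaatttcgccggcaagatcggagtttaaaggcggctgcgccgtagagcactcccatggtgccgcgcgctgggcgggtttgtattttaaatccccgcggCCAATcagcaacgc
Bub1b (chr2:118598061-118598210, plus strand): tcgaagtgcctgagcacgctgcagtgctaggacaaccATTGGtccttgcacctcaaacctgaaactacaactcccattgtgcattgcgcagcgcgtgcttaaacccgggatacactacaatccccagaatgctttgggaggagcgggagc

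**Figure D2:**
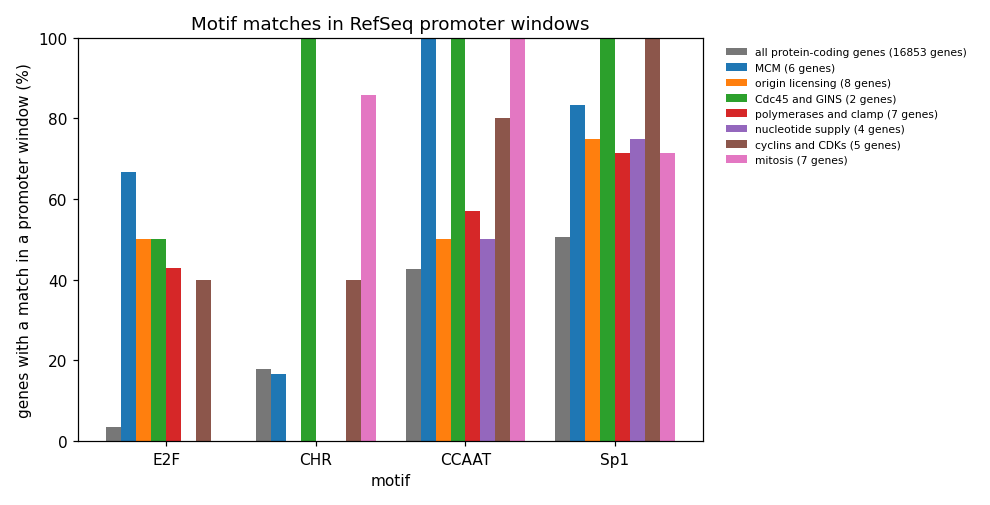
Share of genes with a motif match in at least 1 RefSeq promoter window (y axis, percent) for 4 motifs (x axis), in all protein-coding genes (grey) and in the 7 roles. E2F matches reach 66.7% of the MCM genes and 0% of the mitosis genes, and CHR matches 16.7% and 85.7%.

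The motif shares plotted by role count a gene once if any of its windows holds a match. Around the summits themselves (200 bases, embryonic epithelium) E2F was found in 27.1% of the 48 genes and 2.91% of all genes with a promoter peak, CCAAT in 68.8% and 31.2%, and CHR in 22.9% and 4.3%. For CHR the share of all genes was lower there than in the RefSeq windows. Around the summits of newborn fibers the shares were 13% of 46 genes and 2.56% of all genes for E2F, 52.2% and 26.6% for CCAAT, and 15.2% and 3.07% for CHR. Sp1 was closer to all genes around the summits, at 68.8% and 61.3% in embryonic epithelium and 72.9% and 59.9% in embryonic fibers. In newborn epithelium it was at 62.5% and 64.2%, and in newborn fibers at 69.6% and 59.4%. The strongest promoter peaks covered the E2F matches of the windows fully in 3 lists and partly in newborn fibers. All 20 matches, in 14 genes, lay inside the strongest promoter peak in embryonic epithelium, embryonic fibers and newborn epithelium, and 11 of 20 (55%) did in newborn fibers. Over all genes with a promoter peak, 85.2%, 89%, 82.2% and 67.9% of E2F matches lay inside it in the 4 lists. The 9 matches outside the strongest peak in newborn fibers were those of Mcm6 (3), Mcm5 (2), Mcm7 (2), Cdc6 and Cdk2. Those of Mcm7 lay in another listed peak, and the other 7 lay in none. For genes with a promoter peak in the list, CHR matches lay inside the strongest one in 15 of 16, 15 of 16, 13 of 16 and 12 of 15 cases, against 51%, 56.8%, 42.8% and 29.8% over all such genes. The CHR share of the group was thus above that of all genes in every list (80% in newborn fibers), and the E2F share below it in newborn fibers only. These shares count matches, and some E2F matches of Mcm6 and of Mcm5 overlap. By gene, 9 of 14 held an E2F match inside the strongest peak in newborn fibers, and 13 of 20 matches lay in any listed peak. CCAAT matches lay inside in 56, 57 and 53 of 60 and in 45 of 59 cases, against 76.6%, 79%, 74.4% and 65.6%. A match is a description of the letters and not evidence of a bound factor.

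The promoters stood high in the lists. Peaks were ranked by fold enrichment within their list and ranks given as a percent of the list, where a smaller value is a stronger peak. The median over the 48 genes was 3.53% in embryonic epithelium (all genes with a promoter peak 7.68%), 3.64% in embryonic fibers (6.1%), 9.32% in newborn epithelium (12.8%) and 8.49% in newborn fibers (10.3%). Gins2, a subunit of the GINS complex, and Orc4, a subunit of the origin recognition complex, led at E14.5. Gins2 was at 0.142% and 0.204% in epithelium and fibers, with 304 and 407 fragments. Orc4, with a summit 184 bp from the start of Mbd5 and 57 bp from its own, was at 0.241% and 0.157% (288 and 419 fragments). At P0.5 Orc4 still led both lists, at 0.773% and 0.229%. Tyms, thymidylate synthase, had the weakest promoter peak of the group in 3 lists, at 16%, 23.5% and 42.9%, with 39, 30 and 14 fragments. In newborn fibers it was at 69.2% with 7 fragments, Mcm6 was weaker with 6, and Aurkb and Bub1b had no promoter peak. By role, the MCM genes had the highest median in both epithelial lists, 2.15% and 3.61%, beside 2.74% and 7.65% in fibers. Among genes with a promoter peak, nucleotide supply had the weakest median in the 4 lists, at 7.87%, 8.15%, 25.5% and 25.2%. In newborn fibers the mitosis genes followed at 21.1%, a median over 6 of 8 that leaves out Aurkb and Bub1b.

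**Figure D3:**
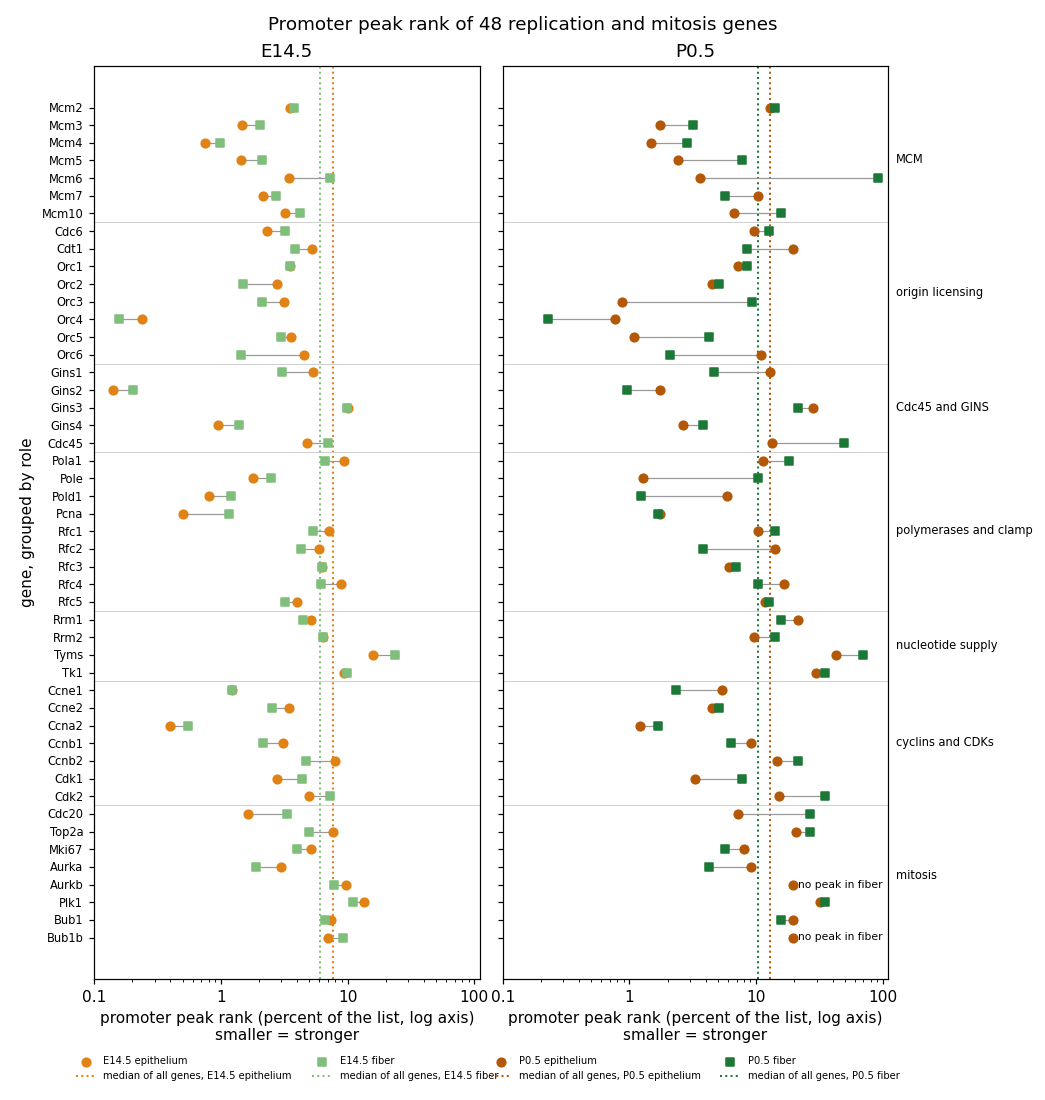
Promoter peak rank of the 48 genes as a percent of the list (x axis, log scale, smaller is stronger) at E14.5 and P0.5, by gene and role (y axis). Circles are epithelium, squares fibers, grey lines join the tissues, and dotted lines are the medians of all protein-coding genes. Orc4, Gins2 and Ccna2 lie far to the left, and Mcm6 spans the widest distance, from 3.61% to 91.3% at P0.5.

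Between the tissues of E14.5 few promoters changed place. At least 2-fold higher placed in epithelium were 3 of 48 genes, Mcm6, Pcna and Cdc20, where 3.26% of all genes met the same rule. At least 2-fold higher placed in fibers was Orc6 alone, where 12.7% of all genes did. In the plot of ranks most pairs of symbols at E14.5 lie close together. Pcna, the sliding clamp, was at 0.507% in epithelium and 1.17% in fibers (2.3-fold), with 254 and 298 fragments. At P0.5 it did not differ so, its rank percent in fibers being 0.976 times that in epithelium. Mcm6 was at 3.44% and 7.21% (2.09-fold), with 141 and 106 fragments, and Cdc20, the activator of the anaphase-promoting complex, at 1.64% and 3.31% (2.01-fold), with 191 and 203 fragments. These were followed by Cdk1, the mitotic kinase, at 2.79% and 4.36%, and by Pold1, the catalytic subunit of polymerase delta, at 0.802% and 1.2%. On the side of fibers, Orc6 was at 4.52% in epithelium and 1.44% in fibers (3.15-fold), with 121 and 281 fragments. It shares its promoter with Vps35, whose start is 115 bp away. Orc2 (2.79% and 1.5%), Gins1 (5.38% and 3.06%), Ccnb2 (7.91% and 4.7%) and Aurka (3% and 1.89%) came next, all under 2-fold.

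How many genes leaned to either tissue at E14.5 depended on the scale, because the promoters of all genes stood at 0.781 times their epithelial rank percent in the list of fibers. As a percent of the list, 24 genes were higher placed in epithelium and 24 in fibers, where 27.2% of all genes were higher in epithelium. Ranked among the protein-coding genes with a promoter peak, 32 were higher in epithelium and 16 in fibers (66.7%, against 45.8% of all genes). The third scale used the fragments at the summit, over the background of the list, as a ratio of fibers to epithelium. It was divided by the median ratio of all genes with a promoter peak in both lists (1.04 at E14.5). On this scale 31 of 48 were higher in epithelium, where 49.9% of all genes were, with a median ratio of 0.897. Of the 48, Mcm6 alone passed 2-fold in epithelium, at 0.492 (95% exact binomial interval 0.378 to 0.637), where 2.88% of all genes did, and 0 passed it in fibers (1.41%). Ranked among genes, 3 (3.77% of all genes) and 1 (3.67%) were at least 2-fold higher placed in epithelium and in fibers. The intervals cover counting error in the pooled libraries only, not the spread between lenses.

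**Figure D4:**
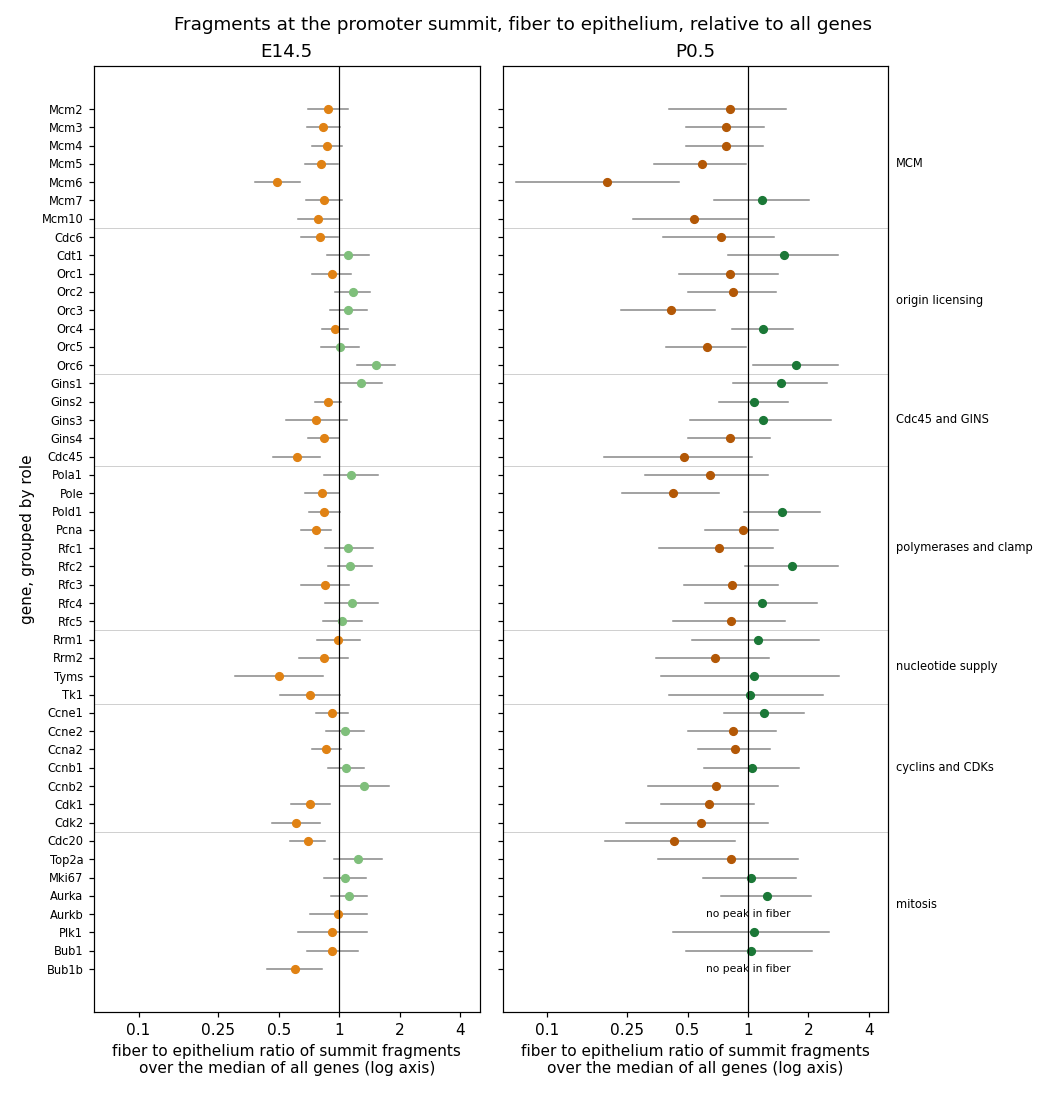
Ratio of fibers to epithelium of the fragments at the promoter summit, over the background of each list and divided by the median of all genes (x axis, log scale), for the 48 genes by role (y axis) at E14.5 and P0.5. Dots are the ratios and grey lines the 95% exact binomial intervals from counting error. All 7 MCM genes lie left of 1 at E14.5 and 6 of 7 at P0.5, and Orc6 lies right of 1 at both stages.

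The MCM genes, which encode the replicative helicase (Mcm2 to Mcm7) and the replication factor Mcm10, were mostly higher in epithelium on the scale relative to all genes, where 49.9% of all genes were at either stage, and no test was possible. In embryonic epithelium and embryonic fibers, Mcm2 had 140 and 188 fragments, Mcm3 198 and 252, Mcm4 234 and 311, Mcm5 199 and 248, Mcm6 141 and 106, Mcm7 174 and 223, and Mcm10 146 and 175. On the scale relative to all genes, their fiber to epithelium ratios ran from 0.492 (Mcm6) to 0.878 (Mcm2), so that all 7 were higher in epithelium, with a median of 0.832, though the intervals of Mcm2, Mcm3, Mcm4 and Mcm7 held 1. At P0.5 the pairs were 37 and 14 for Mcm2, 80 and 29 for Mcm3, 83 and 30 for Mcm4, 73 and 20 for Mcm5, 65 and 6 for Mcm6, 42 and 23 for Mcm7, and 52 and 13 for Mcm10. Here 6 of 7 were higher in epithelium, with a median of 0.777, and Mcm7 went the other way (1.18, interval 0.676 to 2). The intervals of Mcm5 and Mcm6 lay below 1 at P0.5, and those of the other 5 held 1. The newborn fiber value of Mcm4 was that of the summit at Prkdc. Ranked among genes, the MCM promoters were placed 1.63 and 2.1 times higher in epithelium at the median. The ribosomal protein genes, promoters active in every cell, had medians of 1.12 and 1.08 on the scale relative to all genes. Markers of periocular mesenchyme were also higher in epithelium on it, 4 of 4 at E14.5 (median ratio 0.834) and 3 of 4 at P0.5 (0.853), and the part of such cells in the MCM values was not tested.

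Mcm6 held the largest difference between tissues at P0.5 by percent of the list and by fragments, and at E14.5 by fragments. Ranked among genes at P0.5, Orc3 (11.4-fold) and Pole (8.32-fold) differed more than Mcm6 (6.25-fold), and by percent of the list at E14.5 Orc6 and Pcna did. It stood at 3.44%, 7.21%, 3.61% and 91.3% of the lists, with peaks of 870, 1107, 818 and 120 bp. In 3 lists the summit was 26 bp before the start, in a peak over the 3 E2F matches and 2 CCAAT boxes of the stretch printed above. In newborn fibers that element was not listed, and a peak of 6 fragments, the fewest of any peak in that list, lay 235 bp into the gene. The ratio at P0.5 was 0.198 (interval 0.0703 to 0.456). At a q value under 0.001, the peaks of Mcm6, Cdc45 and Tyms in newborn fibers were no longer listed.

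Differences between the tissues were larger at P0.5 than at E14.5, and they ran both ways. The shares of all genes past 2-fold were also larger at P0.5, and the summits there rest on fewer fragments. The part of counting error was not tested. At least 2-fold higher placed in epithelium were 10 of 46 genes: Mcm5, Mcm6, Mcm10, Orc3, Orc5, Cdc45, Pole, Cdk1, Cdk2 and Cdc20 (15% of all genes). At least 2-fold higher placed in fibers were 8: Cdt1, Orc4, Orc6, Gins1, Pold1, Rfc2, Ccne1 and Aurka (21.8% of all genes). Both shares, 21.7% and 17.4%, are to be read against those of all genes. Ranked among genes, the counts were 9 (12.2% of all genes) and 6 (11.5%), with Mcm4 added and Cdc45, Cdk2, Cdt1 and Aurka left out. With peaks of a q value under 0.001 alone, which shortens the list of newborn fibers most, the counts were 23 of 43 in epithelium (33.8% of all genes) and 3 of 43 in fibers (6.78%), and Cdt1, Orc4, Gins1, Ccne1 and Aurka no longer passed 2-fold. All genes moved with them on that setting, to 71.2% higher placed in newborn epithelium (33 of 43 of these genes, 76.7%). On the scale of fragments, where the median ratio of all genes was 0.545 before scaling, 5 of 46 genes passed 2-fold in epithelium (3.26% of all genes) and 0 in fibers (4.11%). The 5 were Mcm6, Orc3, Cdc45, Pole and Cdc20. For Cdc45 the strongest peaks of the tissues did not overlap, and the element beside Ufd1, listed in both, had 20 and 8 fragments and a ratio of 0.86 (interval 0.328 to 2.04), so the call ended when the same element was compared. Leaning by any amount, 29, 30 and 27 of 46 genes were higher in epithelium on the 3 scales, where 42.5%, 48.5% and 49.9% of all genes were.

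On the side of newborn epithelium, Orc3, a subunit of the origin recognition complex, was at 0.874% there and 9.32% in fibers (10.7-fold), with 94 and 18 fragments. Its start is 15 bp from that of Rars2, so the peak belongs to both genes. Pole was at 1.27% and 10.3% (8.11-fold), with 86 and 17 fragments, the latter at the start of Pxmp2. Orc5 was at 1.09% and 4.22% (3.89-fold) and Cdc45 at 13.3% and 48.9% (3.66-fold), the latter at Ufd1. The peaks of Cdc45 beside Ufd1 alone were at 27.9% and 48.9% (1.75-fold). Cdc20 was at 7.24% and 26.4% (3.65-fold), with 50 and 10 fragments and a ratio of 0.43 relative to all genes (interval 0.194 to 0.858). With E14.5 (0.695, interval 0.568 to 0.851), Cdc20 was thus the mitosis gene placed lower in fibers at both stages by more than counting error, while Bub1b (0.601, interval 0.438 to 0.824 at E14.5) was not listed in newborn fibers. Cdk1 had 156 and 171 fragments at E14.5 (0.717, interval 0.574 to 0.896) and 67 and 20 at P0.5 (0.642, interval 0.369 to 1.07). Cdk2, the kinase of S phase, had 114 and 106 (0.608, interval 0.462 to 0.799) and then 33 and 9 (0.586, interval 0.247 to 1.25). Its P0.5 values come from different positions, with summits 481 bp from the start in epithelium and 2 bp from it in fibers.

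On the side of newborn fibers, Orc6 was at 10.8% in epithelium and 2.09% in fibers (5.18-fold), with 41 and 33 fragments. Its ratio relative to all genes was 1.73 (interval 1.06 to 2.81) after 1.52 at E14.5 (interval 1.22 to 1.9). The P0.5 values of Orc6 come from different positions. In newborn epithelium the summit lay 141 bp before its start, 26 bp from the start of Vps35, and in newborn fibers 196 bp into the gene. Pold1 was at 5.87% and 1.22% (4.8-fold), with 55 and 38 fragments (1.49, interval 0.956 to 2.29), although at E14.5 it had been placed higher in epithelium. Rfc2, a subunit of the clamp loader, was at 13.9% and 3.82% (3.65-fold), Orc4 at 0.773% and 0.229% (3.38-fold) and Gins1 at 12.8% and 4.64% (2.76-fold). The intervals of Rfc2 (0.966 to 2.82), Orc4 (0.832 to 1.68) and Gins1 (0.838 to 2.48) reached 1. By percent of the list, peaks at licensing genes thus stood on both sides, Orc3 and Orc5 higher in epithelium and Orc4 and Orc6 in fibers. Each of these peaks lies in a region shared with a neighbour and cannot be assigned to the licensing gene, and the interval of Orc4 held 1.

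Of the remaining licensing genes, Cdc6, the MCM loader, had 169 and 206 fragments at E14.5 (0.797, interval 0.647 to 0.983) and 44 and 15 at P0.5 (0.733, interval 0.379 to 1.34). Its partner Cdt1 had 110 and 185 fragments, then 27 and 19 (1.51, interval 0.795 to 2.82 at P0.5). Orc1 (140, 196, 50 and 19 in list order) and Orc2 (156, 278, 61 and 24) had intervals that held 1 at both stages. The same held for the GINS subunits Gins2 (304, 407, 80 and 40), Gins3 (63, 74, 20 and 11) and Gins4 (222, 284, 71 and 27). In the copying machinery it held for Pola1, the catalytic subunit of the polymerase that primes synthesis (67, 117, 40 and 12), and for the clamp loader genes Rfc1 (86, 146, 42 and 14), Rfc3 (96, 124, 54 and 21), Rfc4 (71, 125, 31 and 17) and Rfc5 (130, 206, 39 and 15). On the scale relative to all genes, 49.9% of all genes were higher in epithelium at either stage. Counted by role on that scale, epithelium was higher at E14.5 in 3 of 8 licensing genes, 4 of 5 of Cdc45 and GINS, 4 of 9 polymerase and clamp genes, 4 of 4 of nucleotide supply, 4 of 7 cyclins and CDKs and 5 of 8 mitosis genes. At P0.5 those counts were 5 of 8, 2 of 5, 6 of 9, 1 of 4, 5 of 7 and 2 of 6. The last leaves out Aurkb and Bub1b, which had a promoter peak in newborn epithelium and none in newborn fibers.

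Of the genes of mitosis, Top2a (81, 153, 26 and 10 fragments in embryonic epithelium, embryonic fibers, newborn epithelium and newborn fibers), Mki67 (111, 181, 48 and 23), Plk1 (46, 65, 18 and 9), Bub1 (83, 117, 27 and 13) and Aurka (151, 258, 45 and 26) had intervals that held 1 at both stages. The proliferation marker Mki67 was at 5.15%, 4%, 7.95% and 5.69% of the lists. The cyclins Ccne1 (209, 294, 57 and 32 fragments), Ccne2 (141, 230, 61 and 24), Ccna2 (266, 351, 87 and 35) and Ccnb1 (149, 246, 45 and 22) also had intervals that held 1 at both stages. Ccnb2 had 79 and 161 fragments at E14.5 (1.33, interval 1.01 to 1.77) and 34 and 11 at P0.5 (0.696, interval 0.318 to 1.41). In nucleotide supply, Tyms had 39 and 30 fragments at E14.5 (0.503, interval 0.302 to 0.831) and 14 and 7 at P0.5 (1.08, interval 0.367 to 2.85). Rrm1 (111, 168, 25 and 13), Rrm2 (94, 120, 44 and 14) and Tk1 (68, 74, 19 and 9) had intervals that held 1. An interval that holds 1 does not show equal accessibility, and at P0.5 most intervals spanned more than 2-fold.

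Peaks in fibers were wider at E14.5 and narrower at P0.5, in these genes as in all. The median width was 951 bp in embryonic epithelium (all genes 981 bp), 1220.5 bp in embryonic fibers (1249 bp), 627 bp in newborn epithelium (705 bp) and 494.5 bp in newborn fibers (563 bp). At E14.5, 40 of 48 genes had the wider peak in fibers and 8 in epithelium (15.2% of all genes), but Orc3 alone was at least 2-fold wider (1035 and 2236 bp, where 11% of all genes met that rule), and 0 were so in epithelium (0.86%). At P0.5, 40 of 46 genes had the wider peak in epithelium, where 73% of all genes did. At least 2-fold wider in epithelium were 7: Mcm5, Mcm6, Mcm7, Cdc6, Orc3, Cdk1 and Mki67 (15.6% of all genes), and 0 were so in fibers (3.18%). Counted by all promoter bases under peaks, 0 genes differed 2-fold in favour of embryonic fibers (7.98% of all genes) and 4 in favour of newborn epithelium (11.7%). Mcm7 was 1578 bp wide in newborn epithelium and 587 bp in fibers, where its promoter windows held 4 peaks. Mcm5 was 1028 and 484 bp wide, Cdk1 1026 and 362 bp, Mki67 938 and 413 bp, Cdc6 444 and 195 bp and Orc3 1050 and 393 bp.

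**Figure D5:**
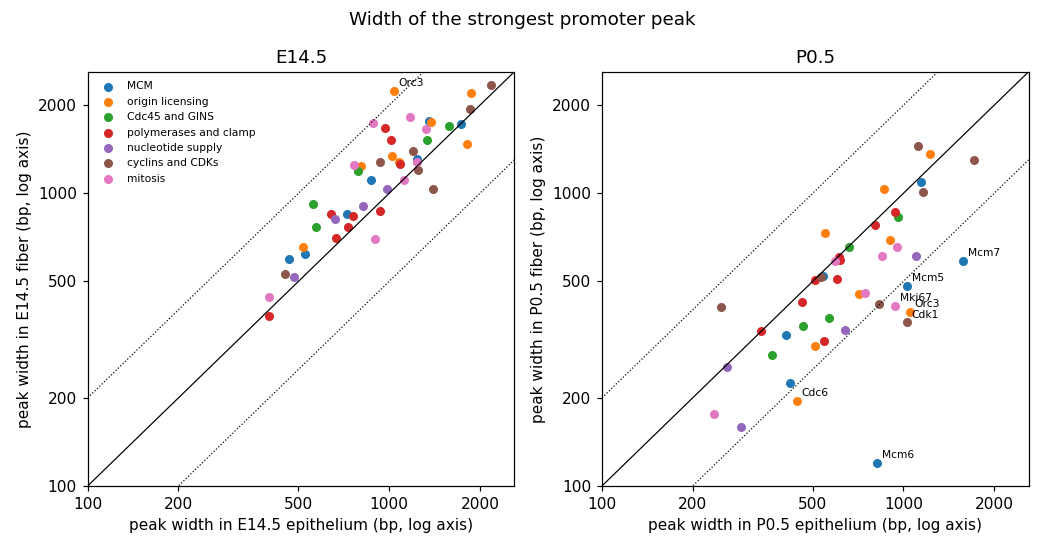
Width of the strongest promoter peak in epithelium (x axis, bp, log scale) and fibers (y axis, bp, log scale) at E14.5 and P0.5. Points are genes coloured by role, the solid line marks equal widths, and the dotted lines 2-fold. At E14.5 most points lie above the solid line and Orc3 beyond the dotted one, and at P0.5 most lie below it, with Mcm6 (818 and 120 bp) farthest away.

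Ccne2, cyclin E2, had peaks of 2179, 2346, 1714 and 1298 bp in the 4 lists, the widest of the group in the first 3. Orc4 (1863, 2194, 1228 and 1358 bp) was among the 3 widest in each list. Ccne1, cyclin E1 (1852, 1940, 1122 and 1446 bp), was so in embryonic epithelium and was the widest in newborn fibers. Orc3 (2236 bp) stood between Ccne2 and Orc4 in embryonic fibers, and Mcm7 (1578 bp) did in newborn epithelium. In the plot of widths Ccne1, Ccne2 and Orc4 lie at the upper right at both stages. The narrowest at E14.5 were Bub1b (399 and 442 bp) and Rfc2 (400 and 382 bp), with Ccnb2 (452 bp) in epithelium and Tyms (516 bp) in fibers. At P0.5 they were Bub1 (235 bp), Ccnb2 (248 bp) and Tk1 (259 bp) in epithelium and Mcm6 (120 bp), Tyms (159 bp) and Bub1 (176 bp) in fibers.

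Gene bodies held few peaks outside the promoter windows. At least 1 was listed in 17 of 48 genes in embryonic epithelium (45% of all genes), 24 in embryonic fibers (50.2%), 9 in newborn epithelium (33%) and 15 in newborn fibers (38.5%). They numbered 32, 52, 13 and 24 peaks, with median widths of 150, 240, 145 and 154.5 bp and median ranks of 55.5%, 61.1%, 66.3% and 48.9% of the list. At E14.5, 3 genes had a body peak in epithelium only (Tk1, Cdk2 and Aurkb, 4.55% of all genes) and 10 in fibers only (Orc1, Orc3, Orc4, Pold1, Rfc4, Rfc5, Rrm2, Ccnb2, Cdk1 and Plk1, 9.82%). The peaks in fibers included 5 in Orc3 and 1 of 384 bp in Plk1 at 20.7% of the list. At P0.5 a body peak was found in epithelium only in Cdc45, Rrm2, Tk1, Cdk1, Mki67 and Bub1b (6 genes, 7.32% of all) and in fibers only in Mcm2, Mcm3, Mcm5, Mcm7, Mcm10, Cdt1, Orc2, Orc5, Gins2, Rfc2, Rfc5 and Aurkb (12 genes, 12.9%). Of the 24 peaks in newborn fibers, 9 had a q value under 0.001. The strongest body peaks were in Rfc1, the large subunit of the clamp loader, at 9.05% of the list of embryonic fibers, and in Cdc45, at 13.5% in embryonic epithelium and 9.76% in embryonic fibers. That region of Cdc45 was also listed in newborn epithelium (355 bp, 58.5%) and had no peak in newborn fibers. Mki67 had 1 body peak in embryonic epithelium, embryonic fibers and newborn epithelium, of 180, 175 and 245 bp, and none in newborn fibers.

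Between the stages, promoters of both tissues took a lower place in the P0.5 lists, as those of most genes did. In epithelium 31 of 48 genes were at least 2-fold higher placed at E14.5 (37.9% of all genes) and 2, Orc3 and Orc5, at P0.5 (3.3%). Fibers gave 33 of 46 at E14.5 (45%) and 0 at P0.5 (2.43%). Ranked among genes, the counts were 6 and 3 in epithelium (8.55% and 7.75% of all genes) and 4 and 1 in fibers (8.89% and 6.71%). Cell input also differed between the stages, and its part was not tested. The summit fragments of all genes, over background, had a median P0.5 to E14.5 ratio of 0.52 for epithelium and of 0.26 for fibers. Relative to these medians, 40 of 48 genes were higher at E14.5 in epithelium and 38 of 46 in fibers, where 50% of all genes were in either tissue. By 2-fold or more, 0 genes were higher at E14.5 (2.06% of all genes) and 0 at P0.5 (7.9%) in epithelium, and 2 (2.38%) and 0 (14.8%) in fibers. The median ratios of P0.5 to E14.5 on that scale were 0.777 and 0.802, and those of the ribosomal protein genes were 0.675 and 0.693. The place relative to all genes was thus lower at P0.5 in both lists of promoters, and lower still in those of ribosomal proteins. Peaks were at least 2-fold wider at E14.5 in 6 genes in epithelium (17.3% of all genes) and in 25 in fibers (57.4%). Cdc20 had 191 fragments at E14.5 and 50 at P0.5 in epithelium, and 203 and 10 in fibers. Within fibers 7 of 7 MCM genes (median ratio 0.636), 8 of 8 licensing genes, 7 of 7 cyclins and CDKs, 4 of 5 genes of Cdc45 and GINS, 5 of 9 polymerase and clamp genes, 3 of 4 of nucleotide supply and 4 of 6 mitosis genes were higher at E14.5 on that scale. In epithelium, for MCM, licensing, cyclins and CDKs, Cdc45 and GINS, polymerases and clamp, nucleotide supply and mitosis, 6 of 7, 6 of 8, 7 of 7, 5 of 5, 5 of 9, 3 of 4 and 8 of 8 were. The fiber count of mitosis genes leaves out Aurkb and Bub1b, which had a promoter peak in embryonic fibers and none in newborn fibers. The comparisons of tissues and stages share lists, so they are not separate evidence for one another.

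Other genes of the same pathways were taken from gene lists. Their counts stand beside 64.6% to 71.2% of all genes for a promoter peak and 49.9% for a higher value in epithelium at either stage. Of 24 other replication genes, 24 had a promoter peak in every list, and of 24 other mitosis genes 24, 24, 24 and 23 did. Relative to all genes, 14 of 24 other replication genes were higher in epithelium at E14.5 and 15 of 24 at P0.5, with median fiber to epithelium ratios of 0.925 and 0.846. Among the other mitosis genes 18 of 24 and 16 of 23 were, with medians of 0.905 and 0.849. The promoters of E2F, Rb and DREAM factors, which control the cell cycle genes, were open in 18 of 18 cases in all lists, and 12 and 15 of 18 were higher in epithelium (0.925 and 0.836). Genes of cell cycle exit, such as CDK inhibitors, had peaks in 10 of 10 cases in all lists, and 7 and 6 of 10 were higher in epithelium (0.907 and 0.879). The lists hold accessibility only, and expression was not analysed here.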

How the data were processed

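ATAC-seq libraries (2 per group, 8 in all) were trimmed by the authors with Trim Galore 0.4.1, mapped to mm10 with Bowtie2 2.3.3.1 and freed of mitochondrial and duplicated reads (SAMtools 1.2, Picard 2.1.1), and peaks were called with MACS2 2.1 on paired fragments at a q value of 0.05, pooled by group, with no control library named. The authors deposited, per peak, a fold enrichment (a ratio at the summit) and −log10 p and −log10 q values. In every list 100% of the deposited fold ratios were whole fragments plus 1 over a constant plus 1 (within 0.02 fragments), and 100% of the −log10 p values under 200 followed from them, so ranking by p gave the same order. The deposited peak score was not used. Median peaks rest on 8 to 15 fragments and the weakest on 6 to 8, which sets the precision. Per-library depth is unknown from the lists.

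Groups were taken from the labels, and 0 columns stayed unassigned. Promoters were windows of 2 kb around each start of 45756 curated RefSeq transcripts (GRCm38.p6, the build mm10), and a peak counted by an overlap of 1 bp. The highest-ranked peak stood for a promoter. Differences counted from 2-fold and were set beside all protein-coding genes, without a test, since each group has 1 list. The members and lists were chosen with earlier results of these data known. All 48 genes could be named. Values in full went to genes without a promoter peak, the 5 largest rank ratios in each direction at each stage, the 3 widest and 3 narrowest peaks of a list and genes with body peaks in 1 tissue only. Alternatives were a q value under 0.001, equal numbers of 58592 peaks, windows of 1 kb and 500 bp, the summit in place of any overlap, predicted transcripts (119253 in all), ranks by p, ranks among genes, a fold of 1.5, bases covered, an overlap of 50% and, added after seeing the data, scaled summit fragments, a peak over the start and the peak of Cdc45 beside Ufd1. Scripts used python 3.11.15, pandas 2.3.3, numpy 2.4.6 and matplotlib 3.10.9 and were tested on simulated lists of 2000 genes, where 100% of planted differences were recovered. Reads and single libraries were not used here.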

Additional observations from a re-analysis of the deposited data

Results flagged for a closer look

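Orc3 leaned to opposite tissues at the 2 stages. The ratio of its promoter rank percent, fibers to epithelium, was 0.661 at E14.5 (2.1% against 3.17% of the list, a stronger place in fibers) and 10.7 at P0.5 (9.32% against 0.874%, a stronger place in epithelium). The difference between the stages was not tested, since each group has 1 list. On the scale relative to all genes the ratios of summit fragments were 1.11 (95% exact binomial interval 0.9 to 1.37) and 0.412 (0.234 to 0.687), from 147 and 249 fragments at E14.5 and 94 and 18 at P0.5. The peak lies over the starts of Orc3 and Rars2, which are 15 bp apart.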

How the results depend on the processing

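No paired analysis was possible because the 2 numbered libraries of each group were pooled before peaks were called, so the lists carry no replicate numbers. Of 252 alternative values for counts and medians, 220 stayed within 1.5 times the value reported and 32 moved beyond it. Of 174 alternative values for single genes, scaled fragments left out, none changed direction and 9 fell under 2-fold. On scaled fragments 16 of the 22 single-gene calls between tissues fell under 2-fold and 0 turned. The counts of genes with a promoter peak stayed within that range under every alternative run. Equal numbers of peaks gave median ranks of 6.02% (embryonic epithelium) and 7.69% (embryonic fibers), body peaks in 8 and 11 genes (34.3% and 36.8% of all genes), stage counts of 10 (epithelium, 11.8% of all genes) and 11 (fibers, 12.9%) genes higher at E14.5, and 1 gene higher in newborn than in embryonic fibers (13.8%). Ranks among genes gave medians of 25.6%, 32.2%, 37.7% and 39.6%, since the denominator is smaller, and stage counts of 6 in epithelium and 4 and 1 in fibers. A q value under 0.001 gave a median rank of 15.7% in newborn fibers, 23 genes higher in newborn epithelium (33.8% of all genes) and 3 in newborn fibers (6.78%), and body peaks in 8 genes of newborn fibers (23.2%), since it keeps 48.9% of that list. Scaled summit fragments, added after seeing the data, gave 1 and 0 genes at E14.5 (epithelium, fibers), 5 and 0 at P0.5, 0 and 0 between stages in epithelium, and 2 at E14.5 in fibers. A fold of 1.5 gave 8 genes higher in embryonic fibers (33.8% of all genes), and 9 (embryonic fibers, 26.3%), 17 (embryonic over newborn epithelium, 37%), 17 (newborn epithelium, 29.3%) and 1 (newborn fibers, 6.49%) wider, since it is a laxer rule. Bases covered gave 0 genes wider in embryonic fibers and 4 in newborn epithelium, and the cause was not tested. Depth limits newborn fibers most, where the median listed peak rests on 8 fragments.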
